A study of Mus musculus with 2 samples.

Results

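Mir126a, Mir126b, Mir143, Mir145a and Mir145b are the mouse genes of the microRNAs miR-126, miR-143 and miR-145, which are known from blood vessels. They were taken by gene name from the tables of 2202 microRNA genes, and all 5 were found. The tables come from small RNA sequencing, below 30 nt, of the left cerebral cortex of female mice aged 25 days. The animals were B6CASTF1/J, the first-generation cross of an inbred laboratory strain with an inbred wild-derived one, and they carried no named treatment or engineered allele. There was 1 group with 2 biological replicates, so no condition was compared. The animals carry separate numbers in the labels but a single donor record, so their independence rests on the labels, and the spread between them may be in part technical.

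miR-126 is made by endothelial cells, the inner lining of vessels, where it supports the response to vascular endothelial growth factor and keeps vessels intact. Its hairpin lies within Egfl7, a gene for a protein that endothelial cells secrete. miR-143 and miR-145 are made together in vascular smooth muscle and other mural cells, which wrap the vessel wall, and promote their contractile state. In the cortex these cells are a minority beside neurons and glia. The genes are named here after vessel cells, while the cells that gave the reads were not tested in this bulk sample. In such a sample, fewer cells of a type and less RNA per cell cannot be told apart.

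The Mir126 sequences are shown because both genes read the same stretch of DNA from opposite strands. They come from RefSeq on GRCm38.p6, whose table matched 2 of the 5 genes. In the hairpins, capitals mark the mature microRNAs listed in that table. For Mir126a it lists miR-126a-3p alone, so a mature microRNA from the other arm is neither marked nor compared here. In the mature sequences, capitals mark the seed, bases 2 to 8, which pairs with targets.
Mir126a hairpin: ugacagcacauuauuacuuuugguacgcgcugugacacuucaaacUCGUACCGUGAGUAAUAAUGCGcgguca
Mir126b hairpin: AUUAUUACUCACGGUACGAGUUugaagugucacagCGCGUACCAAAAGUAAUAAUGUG
mmu-miR-126a-3p: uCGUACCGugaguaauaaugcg
mmu-miR-126b-5p: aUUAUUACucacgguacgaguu
mmu-miR-126b-3p: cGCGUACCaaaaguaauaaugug
The 58 nt of the Mir126b hairpin are the exact reverse complement of positions 7 to 64 of the 73 nt Mir126a hairpin, counted from its 5′ end. The mature miR-126a-3p and miR-126b-5p lie across from each other over 19 positions. Read in the same sense, the hairpins share no run longer than 10 bases, which is shorter than any of these mature microRNAs. The 3 seeds differ from each other, and none was found in another of the 1738 mature sequences of the table.

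On mm10, Mir126a (ENSMUSG00000065540.1) occupies 26591357 to 26591429 on the plus strand of chromosome 2, and Mir126b (ENSMUSG00000105799.1) occupies 26591363 to 26591420 on the minus strand. In the GENCODE M21 annotation, 9 of the 19 Egfl7 transcripts span Mir126a on its strand. In 8 of those 9 the hairpin is intronic, and in 1, a transcript with a retained intron, it is exonic. No coding sequence or UTR of Egfl7 overlaps it. The overlapping protein-coding gene model Gm20532, on the same strand, also holds it in an intron.

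Mir143 (ENSMUSG00000065445.3) occupies 61649196 to 61649258 and Mir145a (ENSMUSG00000065592.2) occupies 61647825 to 61647894, both on the minus strand of chromosome 18. They are 1301 bases apart, with no annotated gene between them, and overlap no other gene. The long noncoding RNA gene Carmn ends 366 bases upstream of Mir143 on the same strand. On the far side of Mir145a, the gene Bvht, a noncoding RNA known from mouse heart development, ends 352 bases away on the plus strand. Mir145b (ENSMUSG00000098366.1) lies apart from them at 69022199 to 69022273 on the minus strand, with its nearest annotated neighbour 70670 bases away. The longest run that Mir145a and Mir145b share is 17 bases.

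Reads in the sense of a microRNA gene numbered 3017058 in replicate 1 and 3209361 in replicate 2. Levels are counts scaled to 1000000 such reads (CPM). Reads placed at several loci, 40.3% and 39.0% of all reads, are outside the gene counts. Of 10 microRNA genes of cortical neurons, 7 were detected, led by Mir139 at 148859 ± 9844 CPM (SD, n = 2), Mir132 at 34178 ± 1376 CPM and Mir128-1 at 13186 ± 1882 CPM. The 3 Mir124a genes, which are known from neurons, had between 0 and 9 counts per library. Reads placed at several of these genes are not in the counts, and their number was not tested. Such low counts are therefore no measure of the level of miR-124. The list held 21.9% of counts in replicate 1 and 20.6% in replicate 2.

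Of the 5 vascular genes, Mir126a, Mir143 and Mir145a reached 10 or more counts in each library, which was the rule for detection, and Mir126b and Mir145b had 0 counts in both. Over all counted genes, 17.9% were detected by this rule. Together the 5 genes held 1.20% of counts in replicate 1 (exact Clopper-Pearson 95% interval 1.19 to 1.21) and 1.26% in replicate 2 (1.24 to 1.27). Intervals here are for counting error only and leave out the spread between libraries. They may be too narrow even for counting error, since amplified reads without molecular identifiers are not independent molecules.

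Mir126a, the endothelial gene, had 17240 counts in replicate 1 and 28355 in replicate 2. These are levels of 5714 CPM (exact Poisson 95% interval 5629 to 5800) and 8835 CPM (8733 to 8939). It was the highest of the 5 genes in both libraries and stood at place 31 and place 24 of all microRNA genes. Its mean was 7275 ± 2207 CPM (SD, n = 2), at place 28.

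Mir143, the smooth muscle gene with the higher level, had 16611 counts in replicate 1 and 11211 in replicate 2. These are 5506 CPM (5422 to 5590) and 3493 CPM (3429 to 3558), at places 32 and 45. Replicate 1 was the higher library here, the opposite of Mir126a. The mean of 4499 ± 1423 CPM (SD, n = 2) put it at place 41.

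Mir145a, its neighbour, had 2390 counts in replicate 1 and 760 in replicate 2, or 792 CPM (761 to 825) and 237 CPM (220 to 254). It stood at places 107 and 170, and replicate 1 was again the higher library. The SD of Mir145a was 76.3% of its mean of 514 CPM, against 30.3% for Mir126a and 31.6% for Mir143.

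Mir126b and Mir145b had no own-strand count in either library. With the limit for 0 set at 3 counts per library, up to 0.994 CPM was possible in replicate 1 and up to 0.935 CPM in replicate 2. Against the limit of 3 counts, Mir126a was at least 5747-fold higher than its antisense partner Mir126b in replicate 1 and at least 9452-fold higher in replicate 2.

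**Figure D1:**
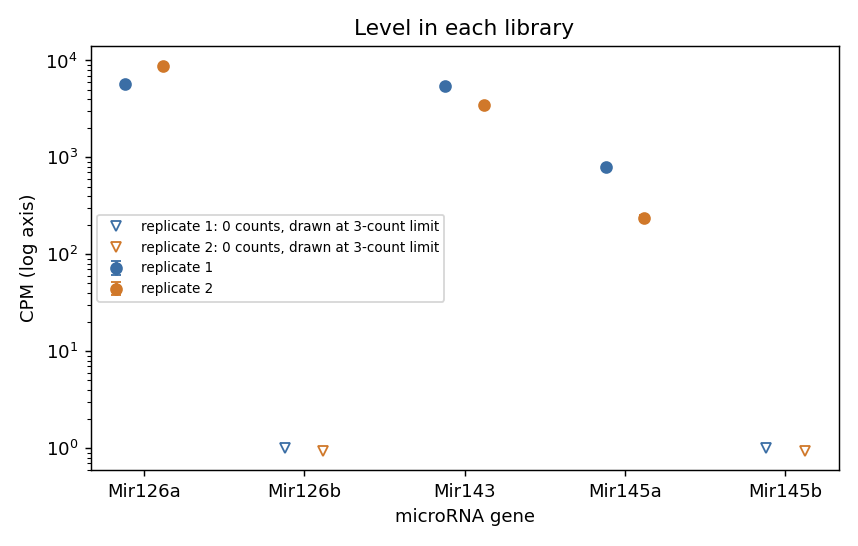
Level of each gene in CPM on a log axis, 1 point per library, with exact Poisson 95% intervals that are mostly narrower than the points. Open triangles mark 0 counts, drawn at the limit of 3 counts. Mir126a is higher in replicate 2, and Mir143 and Mir145a are higher in replicate 1.

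The order of the means was Mir126a, Mir143, Mir145a, and counts followed this order in both libraries. The value of Mir143 in replicate 1, 5506 CPM, lay just under the lower value of Mir126a, 5714 CPM. Both values of Mir145a lay below all values of Mir126a and Mir143. A read covers a mature microRNA rather than a fragment of a longer RNA, so counts were not divided by length in the values above. Per base of hairpin, Mir126a was at 78.3 CPM per nt and Mir143 at 87.4 CPM per nt in replicate 1, which turns their order there. In replicate 2 the same levels were 121 and 55.4 CPM per nt, and Mir145a stood lowest in both at 11.3 and 3.38 CPM per nt.

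Among all detected genes, the neighbours of each gene in the order of mean level could not be separated from it. Mir328 (8339 ± 2240 CPM) stood directly above Mir126a and Mir30d (6628 ± 2502 CPM) directly below. Mir361 (4769 ± 885 CPM) and Mir342 (4470 ± 634 CPM) enclosed Mir143, and Mir700 (524 ± 54.1 CPM) and Mir195a (512 ± 223 CPM) enclosed Mir145a. All 6 had values that overlapped those of the gene beside them. In all, the 2 values of 13 genes overlapped the range of Mir126a, those of 24 genes the range of Mir143 and those of 67 genes the wide range of Mir145a.

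The genes closest to each in both libraries were found by the distance between their pairs of log2(CPM + 1) values. For Mir143 these were Mir378a (5369 and 3496 CPM, distance 0.036), Mir379 (5374 and 3417 CPM, 0.047) and Mir30a (4861 and 3398 CPM, 0.18). For Mir126a the closest was Mir328 (6755 and 9923 CPM, 0.29), followed by Mir137 (0.73) and Mir324 (0.74). For Mir145a they were Mir380 (563 and 163 CPM, 0.73), Mir34c (0.82) and Mir672 (1.02). With only 2 libraries, likeness means a similar level and a similar ratio and nothing more.

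The strand columns show which side of the Mir126 locus was read. In replicate 1, Mir126a had 17240 reads on its own strand and 0 on the opposite one. Mir126b had 0 reads on its own strand and 17237 on the opposite one, which are the reads of Mir126a seen from across. In replicate 2, Mir126a had 28355 own-strand and 0 opposite-strand reads, and Mir126b had 0 and 28353. The differences of 3 and 2 reads equal the reads that Mir126a kept in the either-strand column.

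Every counted read of the locus thus came from the plus strand, the strand of Egfl7. The limit of 3 counts allows minus-strand reads up to 0.0174% of the reads that overlap both genes in replicate 1 and 0.0106% in replicate 2. In the either-strand column Mir126a had 3 and 2 counts, because reads over both genes have no single owner there. They amount to 8.68% and 13.2% of all reads listed as ambiguous in that column. Such a loss, to under 10% of the own-strand count in both libraries, befell 26 of 395 detected genes (6.58%). Mir143 and Mir145a had the same counts in both columns and 0 reads on the opposite strand, and Mir145b had 0 in every column.

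**Figure D2:**
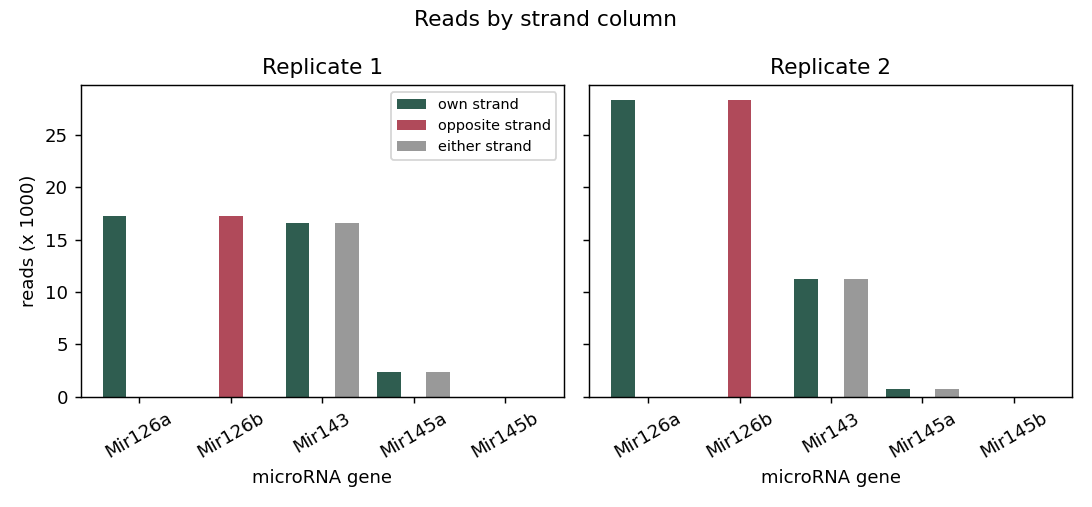
Reads (axis in units of 1000 reads) in the own-strand, opposite-strand and either-strand columns for each gene, by library. The own-strand bar of Mir126a equals the opposite-strand bar of Mir126b to within 3 reads, and both genes are near 0 in the either-strand column.

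The summed share of the 5 genes was nearly the same in both libraries, while its makeup was not. Mir126a supplied 47.6% of their counts in replicate 1 (exact 95% interval 47.1 to 48.1) and 70.3% in replicate 2 (69.9 to 70.8). Mir143 supplied 45.8% (45.3 to 46.3) and 27.8% (27.4 to 28.2). Mir145a supplied 6.59% (6.34 to 6.86) and 1.88% (1.75 to 2.02). As shares of all microRNA gene counts, the endothelial pair held 0.571% and 0.884%, and the 3 mural genes held 0.630% and 0.373%.

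**Figure D3:**
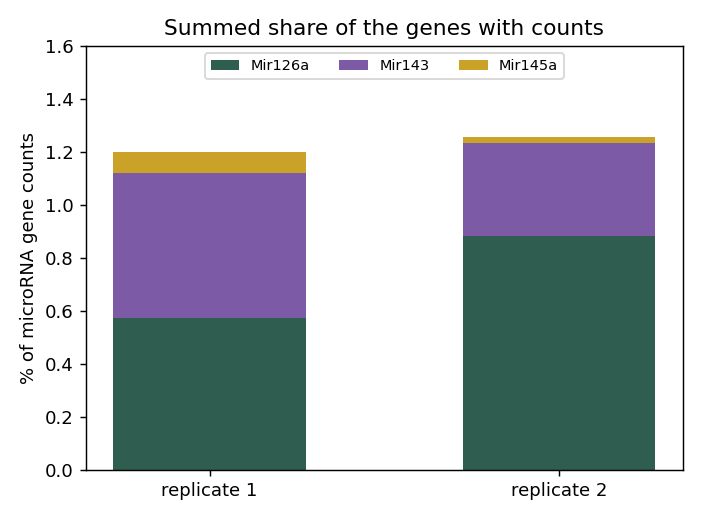
Stacked share of microRNA gene counts, in percent, of Mir126a, Mir143 and Mir145a in each library. The bars reach 1.20% and 1.26%, and the Mir126a part is 0.571% in replicate 1 and 0.884% in replicate 2.

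Ratios between genes of 1 library do not depend on how libraries are scaled. Mir126a had 1.04 counts for each count of Mir143 in replicate 1 (95% counting interval 1.02 to 1.06) and 2.53 in replicate 2 (2.47 to 2.59). The ratios differ by 2.44-fold, or 1.29 on the log2 scale (1.24 to 1.33). Mir143 had 6.95 counts for each of Mir145a in replicate 1 (6.66 to 7.26) and 14.8 in replicate 2 (13.7 to 15.9), a difference of 2.12-fold (log2 1.09, 0.96 to 1.21). The neighbouring mural genes therefore did not keep a fixed ratio. Mir126a to Mir145a differed most among the 3 ratios, at 7.21 in replicate 1 and 37.3 in replicate 2, or 5.17-fold.

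For reference, 84 pairs of microRNA genes on 1 strand, each adjacent among genes with at least 100 counts and at most 5000 bases apart, were compared in the same way. This set was defined after the values of the vascular genes were seen, and its pairs overlap in genes. The ratio of the median pair differed 1.64-fold between libraries, and 20 pairs (23.8%) differed by more than the 2.12-fold of Mir143 and Mir145a. Among them were Mir221 and Mir222 and the pair Mir497 and Mir195a. The shift of Mir143 against Mir145a was larger than the median of these pairs and smaller than that of the 20.

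Between libraries, after TMM scaling, Mir126a was 1.32-fold higher in replicate 2 (log2 ratio 0.40, 95% counting interval 0.37 to 0.43). The exact binomial test with Benjamini-Hochberg adjustment over all 496 tested genes gave an adjusted p of 8.90e-184. Mir143 was 1.85-fold higher in replicate 1 (log2 ratio -0.89, interval -0.92 to -0.85), with an exact binomial adjusted p too small to be stored. Mir145a was 3.92-fold higher in replicate 1 (log2 ratio -1.97, interval -2.09 to -1.85; exact binomial adjusted p = 9.83e-280).

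These calls compare 2 libraries and not conditions, and they are frequent at this depth. The test called 280 of the 496 genes (56.5%), and 30.6% of the tested genes were called toward replicate 1 and 25.8% toward replicate 2. Library totals in place of TMM gave 102 calls toward replicate 1 and 180 toward replicate 2. Among 291 genes with at least 100 counts in total it called 80.4%. With a share this high, the calls of all 3 detected vascular genes are no result about these genes.

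After TMM scaling, the size of the ratio separates the 3 genes better than the call. Among the 231 genes that averaged 50 CPM or more, the median gene was 1.34-fold apart, and 13.9% were over 2-fold apart. Of these genes, 123 (53.2%) were further apart than Mir126a, 39 (16.9%) further than Mir143 and 4 (1.73%) further than Mir145a. With TMM scaling, Mir126a thus lay close to the middle of these genes in its difference between libraries, and Mir145a close to the edge. Compared with library totals, TMM scaling shifted every log2 ratio by -0.23. With library totals all 3 genes kept their direction, at 0.63, -0.66 and -1.74. Mir126a and Mir143 were then alike in the size of their ratio. The places of the 3 genes among the 231 were not counted with library totals.

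**Figure D4:**
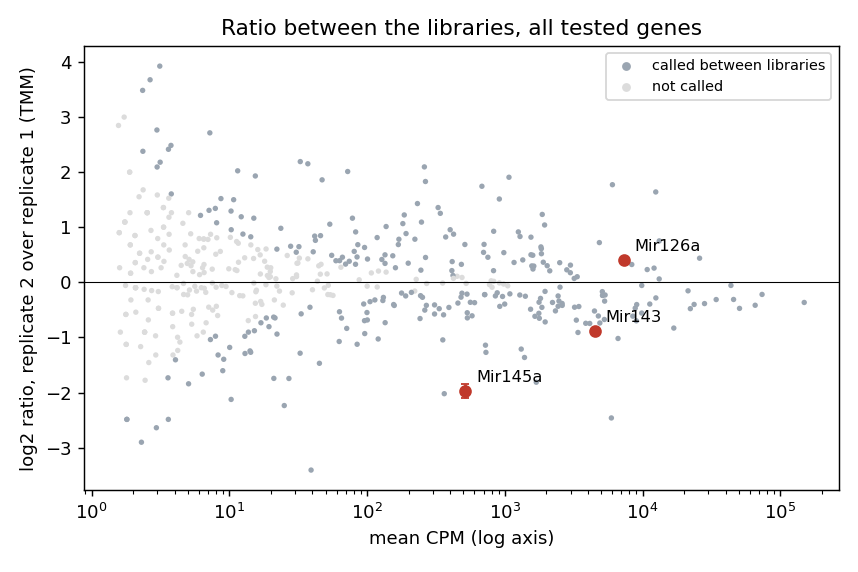
Log2 ratio of replicate 2 over replicate 1 after TMM scaling against mean CPM on a log axis, 1 point for each of 493 tested genes (3 with 0 counts in 1 library are not drawn), with 95% counting intervals for the 3 named genes. Mir126a lies at 0.40, Mir143 at -0.89 and Mir145a at -1.97, the last close to the lower edge of genes of its level.

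A list of 23 other microRNA genes known from vessels was used, many of which neurons, glia or blood cells also express, so it does not mark vessels alone. Of the 23, 21 were detected, and they held 4.77% of counts in replicate 1 and 4.69% in replicate 2. Reads placed at several loci are outside these counts, so the low counts of Mir199a-1 and Mir199a-2 are no measure of miR-199a. The binomial test called 17 of the 21 (81.0%), beside 56.5% of all tested genes and 80.4% of those with at least 100 counts in total. Of the list, 14 genes had at least 100 counts in each library, so the number called is no result about vascular genes. Of the 17, 8 were higher in replicate 1 and 9 in replicate 2. With library totals these counts were 6 and 11. The median log2 ratio of the list was 0.17, beside 0.0058 over all tested genes.

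The highest of them were Mir23b (24091 and 20293 CPM in replicates 1 and 2) and Mir23a (9561 and 8106 CPM), members of the twin clusters that act in vessel sprouting. Both were called higher in replicate 1, by 1.39-fold and 1.38-fold. Mir27b, from the cluster of Mir23b, was called 1.23-fold higher in replicate 2 (1284 and 1852 CPM).

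Mir221 and Mir222, neighbours that act in endothelial migration and smooth muscle growth, had different ratios between libraries. Mir221 was at 5128 and 5101 CPM, called 1.18-fold higher in replicate 1 after TMM scaling but not called with library totals (log2 ratio -0.0077, exact binomial adjusted p = 0.73). Mir222 was at 1137 and 2748 CPM, called 2.06-fold higher in replicate 2. Mir100, an endothelial and smooth muscle microRNA of many tissues, was at 2569 and 3403 CPM, called 1.13-fold higher in replicate 2.

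Blood left in the vessels is another source of RNA in such tissue. All 6 genes of the blood cell list were detected, with 0.211% of counts in replicate 1 and 0.170% in replicate 2. Most of these counts were of Mir150. Which cells they came from was not tested, so the share is no measure of the blood left. The lymphocyte gene Mir150 was at 1967 and 1562 CPM and the leukocyte gene Mir142 at 74.6 and 55.8 CPM, both called higher in replicate 1. The red blood cell gene Mir451a was at 22.5 and 41.4 CPM, called higher in replicate 2. Mir486 (19.6 and 24.0 CPM) and Mir144 (8.95 and 9.97 CPM), also known from red blood cells, were not called. In all, 3 of the 6 were called toward replicate 1 and 1 toward replicate 2, where 30.6% and 25.8% of all tested genes were. The part of blood cells in the difference of the vascular genes was not tested.

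**Figure D5:**
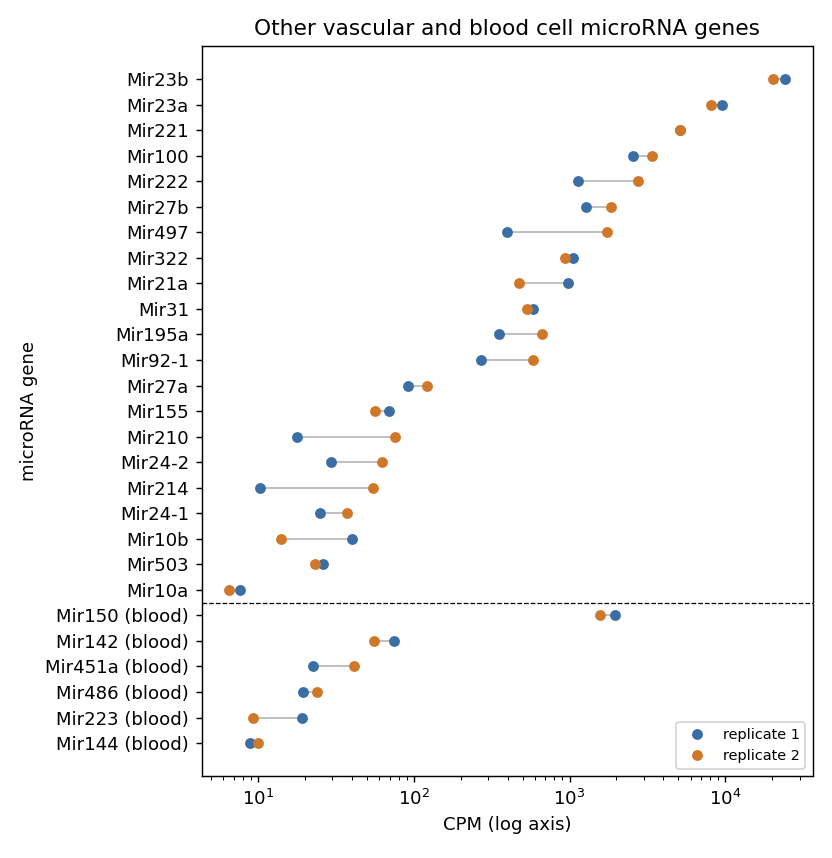
CPM on a log axis of other vascular genes (above the dashed line) and blood cell genes (below it), 1 point per library. Mir199a-1 and Mir199a-2, with 1 count between them, are not drawn. The points of the libraries change sides from gene to gene, with Mir222 higher in replicate 2 and Mir23b higher in replicate 1.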

How the data were processed

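The authors deposited, per library, raw read counts per microRNA gene on mm10 with annotation M21, made from 1 FASTQ file, per the records filed beside the tables. Which aligner and counter made them is not given in the sources used here. Without a header, the roles of the columns (either, own and opposite strand) were read from the values. Own-strand counts, 93.8% and 93.7% of both stranded columns, were used throughout, and 4 classes of reads outside genes were left out of library sizes. The opposite-strand counts, 198711 and 215514, were near the 198617 and 215418 reads listed as ambiguous in the either-strand column. At the Mir126 locus such counts were sense reads of the overlapping gene, so their share is no measure of antisense reads. All 2202 identifiers matched GENCODE M21. Counts cover whole hairpins, not single arms, and reads of wild-derived alleles were not looked at separately.

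CPM, exact Poisson and Clopper-Pearson intervals and ratios were computed with Python 3.11.15 and scipy 1.17.1. Libraries were compared by a two-sided exact binomial test given TMM-scaled sizes (edgeR 4.0.16, genes with at least 10 counts in total), called under an adjusted p of 0.05. The test was tried on simulated counts with known folds and without TMM scaling. Those counts held counting error only, so the trial does not cover the spread between replicates. Alternatives were library totals, DESeq2 1.42.0 size factors, other minimums, the either-strand column, all reads as the denominator and single libraries. Genes were named by rule: the 5 genes, their overlapping and neighbouring genes, the genes directly above and below in level, the 3 nearest in level and the highest of each list. The Mir124a genes, Mir497, Mir486, Mir144, Mir199a-1, Mir199a-2 and the adjacent pairs were named after their values were seen. The genes and lists were chosen with earlier results of these data known.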

Additional observations from a re-analysis of the deposited data

How the results depend on the processing

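No paired analysis was possible because there was 1 group. With the either-strand column the mean level of Mir126a was 0.866 CPM, too few counts to test, and the summed share of the 5 genes was 0.537%. With all reads as the denominator, Mir126a was at 2541, Mir143 at 1582 and Mir145a at 182 counts per 1000000 reads, and the summed share was 0.430%. At 100 counts, 2 of 6 blood cell genes were detected. At the same minimum, 14 of 23 other vascular genes were detected, against 21 at 10 counts. Of 14 ratios of Mir126a, Mir143 and Mir145a between libraries under the other scalings, minimums and the either-strand column, 14 kept their direction and call. A changed minimum does not enter the ratio, so the ratios under other minimums equal the main ones and could not change direction. Leaving out 1 of 2 libraries gives the other library's value and tests nothing further. Single libraries ranged from 5714 to 8835 CPM for Mir126a, 3493 to 5506 for Mir143 and 237 to 792 for Mir145a. The number of called genes ranged from 234 to 283 over the scalings, minimums and columns, with 36.2% of calls higher in replicate 1 under library totals against 54.3% under TMM. For the 3 detected genes the counting intervals are narrower than the difference between libraries, while for Mir126b and Mir145b the depth sets the limit.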
